A study of Homo sapiens with 15 samples.

Results

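The p53 target genes described here are 10 human genes that are standard direct targets of the transcription factor p53: MDM2, CDKN1A, CCNG1, BTG2, RRM2B, FDXR, AEN, ZMAT3, GDF15 and TP53INP1. They were chosen by name and followed through all 5 groups of the experiment. All 10 were found among the 58735 genes of the count table, and 9 were among the 16146 genes with enough counts to test. TP53INP1 was the member too low to test.

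p53 is a transcription factor that is held at a low level by the ubiquitin ligase MDM2 and accumulates after DNA damage, oncogene activity or ribosomal stress. It then switches on genes that halt the cell cycle, supply nucleotides for repair, alter mitochondrial metabolism or promote apoptosis, together with MDM2 itself, which closes a negative feedback loop. In blood cells this pathway is a main brake on the growth of stressed or mutated progenitors. Several of its targets also answer to other inputs: CDKN1A, BTG2 and GDF15 are known to be induced by inflammatory or metabolic stress without p53.

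UKE-1 is an established human myeloid leukaemia cell line with an activating mutation of the kinase JAK2, derived from a myeloproliferative neoplasm. The 15 RNA-seq libraries formed 5 groups of 3: TNF-α stimulated cells given MCL, TNF-α stimulated cells given ruxolitinib, TNF-α stimulated cells given both drugs, cells with TNF-α alone, and untreated cells. All 3 drug groups and their control thus carried TNF-α, which was added beforehand to imitate an inflamed environment, and only the untreated group lacked it. The title of the series names micheliolide, a sesquiterpene lactone, and MCL is read as its abbreviation. Ruxolitinib inhibits the kinases JAK1 and JAK2. The labels give a single time, 3 h after treatment. Nothing in the sources used here gives the doses, how long TNF-α acted before the drugs, or whether replicates were separate cultures. The p-values therefore measure only the spread among these libraries, and that spread may be technical.

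The promoters of the members are shown first, because p53 acts by binding paired copies of a short half-site. RefSeq windows of GRCh38.p14, from 250 bases before to 50 bases after the annotated start, were matched for 8 of the 10 members. RRM2B and TP53INP1 had no window, so the counts below do not cover them. A perfect match to the p53 half-site consensus, which reads the same on both strands and is given by name only, lay in 2 of these 8 windows (25%), those of FDXR and AEN. The same match was found in 5.52% of the 10374 windows of tested genes, and in 2 of 28 windows of other p53 targets (7.14%). The stretches that hold it are printed from 5′ to 3′ on the strand of each gene, with the half-site in capitals:
FDXR, chr17:74872986-74873015, minus strand: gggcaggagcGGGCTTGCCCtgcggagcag
AEN, chr15:88621296-88621325, plus strand: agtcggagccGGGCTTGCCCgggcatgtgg
The capital letters are identical in both genes. In FDXR they cover positions -11 to -2 relative to the RefSeq start, and in AEN positions -34 to -25. In the GENCODE 29 models that match the count table both stretches fall inside the annotated gene, at or near its 5′ end. The window of GDF15 held the only TATA box (TATAAA, either strand), with its first base at position -29, against 5.81% of the windows of tested genes. GC boxes (GGGCGG, either strand) occurred in 8 of 8 windows, against 68.3%. No member window held the NF-kB consensus (0 of 8, against 6.77%), the antioxidant response element TGACNNNGC (0 of 8, against 15.4%) or the ATF4 element TGATGNAA (0 of 8, against 1.71%), each searched on both strands. These are letter matches in a short window. Many known p53 sites, including those of CDKN1A and MDM2, lie outside such a window.

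Library totals ranged from 15476399 to 18035604 counts, and no library stood apart in depth. Levels are given in CPM, the count of a gene over the TMM-adjusted size of its library, and a call means an adjusted p under 0.05 in edgeR's quasi-likelihood test over all tested genes. The 10 markers of myeloid and progenitor blood cells were all tested, with CD34 and GATA2 reaching 1290 and 553 CPM, whereas MPO and ANPEP did not exceed 1.33 and 0.87 CPM. Their summed level was 2280 to 2290 CPM with MCL, 2770 to 2800 CPM with ruxolitinib, 1780 to 1840 CPM with both drugs, 2730 to 2790 CPM with TNF-α alone and 2680 to 2700 CPM in untreated cells. Mitochondrial transcripts took 4.35 to 4.78% of counts with MCL, 5.44 to 5.53% with ruxolitinib, 4.21 to 4.46% with both drugs, 4.94 to 5.21% with TNF-α alone and 5.10 to 5.32% in untreated cells. The 3 fibroblast markers summed to at most 0.249 CPM, and the B cell, T cell and liver markers to at most 27.6, 21 and 1.25 CPM. The 3 epithelial markers, mainly KRT18, summed to 65.0 to 71.5 CPM with MCL, 68.0 to 70.5 CPM with ruxolitinib, 58.2 to 66.4 CPM with both drugs, 77.6 to 82.8 CPM with TNF-α alone and 95.8 to 104 CPM in untreated cells. The part of these shifts in the results below was not tested, and in bulk RNA fewer cells of a type and less RNA per cell cannot be told apart.

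Of the members, CDKN1A was the most abundant per length, with a median over the 15 libraries of 92.4 CPM per kilobase. CCNG1 followed at 53.7, BTG2 at 14.4, AEN at 13.6, FDXR at 9.77, MDM2 at 7.98, RRM2B at 6.95 and ZMAT3 at 3.51 CPM per kilobase. GDF15 stood at 1.1 and TP53INP1 at 0.0624 CPM per kilobase. The members thus covered a wide span of levels.

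The members did not move as a block. With both drugs, 8 of 9 tested members were called against TNF-α alone, 4 higher (RRM2B, MDM2, CCNG1, CDKN1A) and 4 lower (GDF15, BTG2, ZMAT3, AEN), where 54.8% of all tested genes were called, 25.5% higher and 29.3% lower. With MCL 6 of 9 were called, 0 higher and 6 lower, where 26.0% of all genes were called, 10.9% higher and 15.1% lower. With ruxolitinib CCNG1 was higher and AEN lower, so 2 of 9 were called, where 15.7% of all genes were, 5.15% higher and 10.6% lower. TNF-α alone changed 4 of 9 against untreated cells, with BTG2 and CCNG1 higher and ZMAT3 and AEN lower, where 26.6% of all genes were called, 14.1% higher and 12.5% lower. The median log2 change of the tested members was -0.21 under MCL, 0.02 under ruxolitinib and -0.10 under both drugs against TNF-α alone, and -0.02 with TNF-α against untreated cells. Over all tested genes the corresponding medians were -0.02, -0.01, -0.03 and 0.00. The 3 drug comparisons share the TNF-α libraries, so they are not independent of each other.

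**Figure D1:**
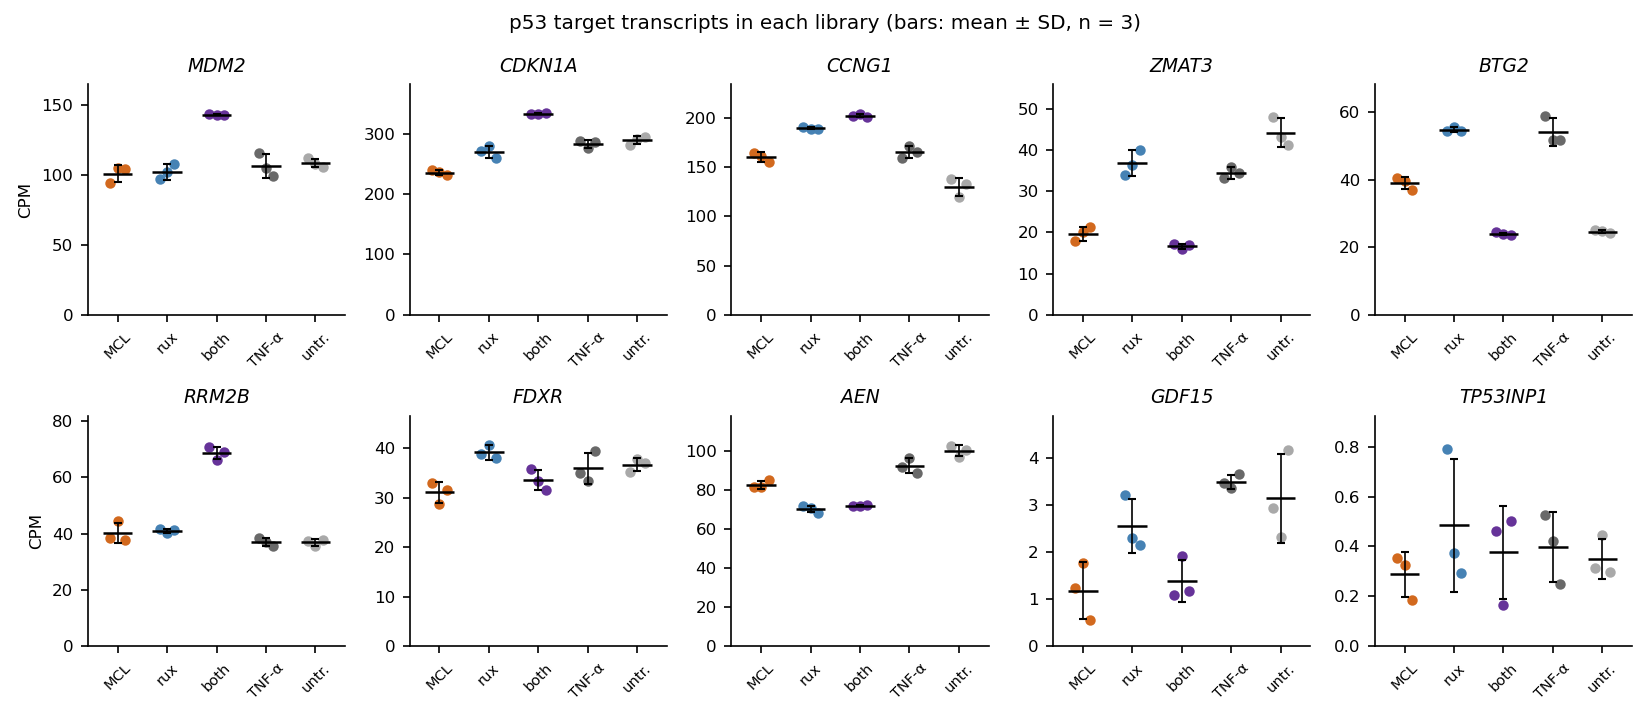
Level of each p53 target in CPM (vertical axis, from 0) in the 15 libraries, with points for libraries and bars for mean ± SD (n = 3); from left to right the groups are MCL, ruxolitinib, both drugs and TNF-α alone (all with TNF-α) and untreated. RRM2B, MDM2 and CDKN1A are highest with both drugs, at 68.6, 143 and 333 CPM on average, while ZMAT3 and GDF15 are low in both groups given MCL.

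MDM2, the ligase that marks p53 for degradation and is itself induced by p53, rose with the combination and was not called with either drug alone. It had 94.2, 105 and 104 CPM with MCL, 96.9, 102 and 108 CPM with ruxolitinib, 144, 143 and 143 CPM with both drugs, 116, 105 and 99.1 CPM with TNF-α alone and 112, 108 and 106 CPM in untreated cells. The 3 libraries with both drugs lay above the other 12, and the other groups lay close together. The means were 143 ± 0.928 CPM with both drugs and 107 ± 8.74 CPM with TNF-α alone (SD, n = 3 each), which gave a log2 fold change of 0.43 ± 0.05 (SE) at an adjusted p of 1.61e-11. Against TNF-α alone the log2 difference was -0.08 with MCL (95% CI -0.17 to 0.02, adjusted p = 0.247) and -0.06 with ruxolitinib (95% CI -0.16 to 0.04, adjusted p = 0.472). In the order of the 5 groups, only the step between both drugs and untreated cells passed the test (0.40 on the log2 scale, adjusted p = 6.13e-11). The gene lies on chromosome 12 at 68808176 to 68850686, plus strand.

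CDKN1A encodes p21, the inhibitor of cyclin-dependent kinases through which p53 arrests the cell cycle, and it went down with MCL alone but up with both drugs. Its levels were 240, 236 and 231 CPM with MCL, 271, 280 and 260 CPM with ruxolitinib, 332, 333 and 334 CPM with both drugs, 288, 276 and 287 CPM with TNF-α alone and 282, 291 and 295 CPM in untreated cells. The MCL libraries were the lowest of the 15 and those with both drugs the highest, with no overlap. Against TNF-α alone the log2 fold change was -0.27 ± 0.03 with MCL (adjusted p = 4.32e-09) and 0.23 ± 0.03 with both drugs (adjusted p = 3.12e-08). With ruxolitinib it was -0.07 ± 0.03 (adjusted p = 0.186), and with TNF-α against untreated cells it was -0.03 (95% CI -0.10 to 0.04, adjusted p = 0.597). Adding ruxolitinib to MCL raised CDKN1A by 0.50 on the log2 scale over MCL alone (adjusted p = 2.12e-19). The gene lies on chromosome 6 at 36676460 to 36687339, plus strand.

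CCNG1 encodes cyclin G1, a p53-induced protein that works with a phosphatase to activate MDM2, and it was higher in every TNF-α group than in untreated cells. It had 165, 162 and 155 CPM with MCL, 191, 189 and 189 CPM with ruxolitinib, 202, 204 and 201 CPM with both drugs, 159, 172 and 166 CPM with TNF-α alone and 138, 120 and 133 CPM in untreated cells. Untreated libraries were the lowest, the MCL and TNF-α libraries overlapped, and those with both drugs were the highest. TNF-α raised it by 0.35 ± 0.04 on the log2 scale over untreated cells (adjusted p = 1.72e-10). Over TNF-α alone it gained 0.19 ± 0.04 with ruxolitinib (adjusted p = 0.000168) and 0.29 ± 0.04 with both drugs (adjusted p = 5.35e-09). The further step between both drugs and ruxolitinib, 0.09 on the log2 scale (adjusted p = 0.0405), was lost in 7 of the 15 fits that left out 1 library: any of the 3 with both drugs, ruxolitinib replicate 1 or 3, TNF-α replicate 3 or untreated replicate 3, with adjusted p between 0.051 and 0.101. CCNG1 lies on chromosome 5 at 163437569 to 163446151, plus strand.

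BTG2, an antiproliferative protein that recruits the deadenylation machinery to mRNA and is also an immediate-early gene, was high with TNF-α and low with both drugs. Its levels were 40.5, 39.6 and 37.0 CPM with MCL, 54.4, 55.7 and 54.4 CPM with ruxolitinib, 24.4, 23.9 and 23.7 CPM with both drugs, 58.9, 51.7 and 51.7 CPM with TNF-α alone and 25.2, 24.7 and 24.1 CPM in untreated cells. The TNF-α and ruxolitinib libraries overlapped at the top, MCL lay in between, and the combination overlapped the untreated cells at the bottom. TNF-α raised BTG2 2.19-fold over untreated cells (log2 1.13 ± 0.06, adjusted p = 3.8e-23). Over TNF-α alone it fell by 0.47 on the log2 scale with MCL (SE 0.06, adjusted p = 5.16e-09) and by 1.17 with both drugs (SE 0.06, adjusted p = 2.27e-24), while the value with ruxolitinib was 0.02 ± 0.06 (adjusted p = 0.876). Between both drugs and untreated cells the log2 difference was -0.04 (95% CI -0.18 to 0.10, adjusted p = 0.675). BTG2 lies on chromosome 1 at 203305491 to 203309602, plus strand.

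RRM2B encodes the p53-inducible small subunit of ribonucleotide reductase, which supplies deoxynucleotides for DNA repair and for mitochondrial DNA in resting cells. It had the largest rise of any member in any comparison of a drug group with TNF-α alone. Levels were 38.6, 44.3 and 37.7 CPM with MCL, 41.7, 40.2 and 41.2 CPM with ruxolitinib, 70.6, 66.1 and 69.1 CPM with both drugs, 38.5, 37.0 and 35.7 CPM with TNF-α alone and 37.2, 35.6 and 37.8 CPM in untreated cells. The libraries with both drugs stood alone, above 44.3 CPM, the highest of the other 12. The combination raised RRM2B 1.85-fold over TNF-α alone (log2 0.89 ± 0.06, adjusted p = 2.33e-20), 1.71-fold over MCL (adjusted p = 1.6e-17) and 1.67-fold over ruxolitinib (adjusted p = 3.33e-17). With ruxolitinib the log2 difference to TNF-α alone was 0.15 (95% CI 0.02 to 0.27, adjusted p = 0.114), although the libraries did not overlap, and with MCL it was 0.12 (95% CI -0.01 to 0.24, adjusted p = 0.187). Against untreated cells the value with ruxolitinib was 0.16 (adjusted p = 0.0445), a call lost with library totals as scaling (adjusted p = 0.0631), with no filter (0.116), under DESeq2 (0.0727) and without any 1 of the 6 libraries of these groups (0.0501 to 0.16). RRM2B lies on chromosome 8 at 102204502 to 102239118, minus strand.

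AEN is a nuclease that p53 induces and that helps degrade DNA in apoptosis, and its transcript was lowest with ruxolitinib and with both drugs. It had 81.8, 81.8 and 85.3 CPM with MCL, 71.9, 71.0 and 68.5 CPM with ruxolitinib, 72.2, 71.9 and 72.6 CPM with both drugs, 92.0, 96.8 and 89.2 CPM with TNF-α alone and 103, 97.3 and 101 CPM in untreated cells. No 2 of the 5 groups overlapped, but both drugs and ruxolitinib lay too close to differ in the test (log2 0.04, 95% CI -0.06 to 0.13, adjusted p = 0.539). Against TNF-α alone AEN changed by -0.40 ± 0.05 on the log2 scale with ruxolitinib (adjusted p = 4.34e-10), by -0.36 ± 0.05 with both drugs (adjusted p = 6.47e-10) and by -0.16 ± 0.05 with MCL (adjusted p = 0.00567). The MCL call was lost without TNF-α replicate 2 (log2 -0.12, adjusted p = 0.085). The TNF-α value against untreated cells, -0.12 ± 0.04 (adjusted p = 0.039), was not called without untreated replicate 1 (adjusted p = 0.104), untreated replicate 3 (0.0861), TNF-α replicate 1 (0.0919) or TNF-α replicate 3 (0.174). AEN lies on chromosome 15 at 88621296 to 88632282, plus strand, and its half-site stretch is printed above.

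ZMAT3 encodes an RNA-binding zinc finger protein that controls splicing and mRNA stability downstream of p53, and its transcript was low wherever MCL was given. Its levels were 17.9, 20.0 and 21.2 CPM with MCL, 33.9, 36.4 and 40.1 CPM with ruxolitinib, 17.1, 16.0 and 17.0 CPM with both drugs, 33.1, 35.8 and 34.4 CPM with TNF-α alone and 48.1, 43.1 and 41.3 CPM in untreated cells. Every library with MCL lay below every library without it. MCL lowered ZMAT3 1.75-fold against TNF-α alone (log2 -0.81 ± 0.08, adjusted p = 3.29e-13) and both drugs lowered it 2.06-fold (log2 -1.05 ± 0.08, adjusted p = 3.74e-18). With ruxolitinib the log2 difference was 0.10 ± 0.07 (adjusted p = 0.441), and with TNF-α against untreated cells it was -0.36 ± 0.07 (adjusted p = 4.07e-05). The small further drop between both drugs and MCL, -0.24 on the log2 scale (adjusted p = 0.0194), was lost with library totals as scaling (adjusted p = 0.0603) and without MCL replicate 2 (0.0504), MCL replicate 3 (0.126) or both-drug replicate 2 (0.0821). ZMAT3 lies on chromosome 3 at 179017223 to 179072279, minus strand.

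FDXR encodes ferredoxin reductase, the mitochondrial enzyme that passes electrons on for steroid and iron-sulfur cluster synthesis, and its groups lay close together. It had 32.9, 28.7 and 31.6 CPM with MCL, 38.7, 40.7 and 37.9 CPM with ruxolitinib, 35.7, 33.4 and 31.6 CPM with both drugs, 34.9, 33.4 and 39.4 CPM with TNF-α alone and 35.2, 37.8 and 37.0 CPM in untreated cells. Ranked by mean, no neighbouring pair of groups passed the test, although groups farther apart did. MCL libraries were lower than those with ruxolitinib by 0.33 on the log2 scale (adjusted p = 0.000126), and both drugs lower than ruxolitinib by 0.22 (adjusted p = 0.00505). Against TNF-α alone, MCL gave -0.21 ± 0.07 (adjusted p = 0.0218), a call that was lost with library totals (-0.17, adjusted p = 0.0605), with no filter (-0.18, 0.0657), in DESeq2 (-0.19, 0.056) and without TNF-α replicate 3 (-0.13, 0.252) or MCL replicate 2 (-0.15, 0.17). FDXR lies on chromosome 17 at 74862497 to 74873031, minus strand.

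GDF15, a secreted stress cytokine of the TGF-β family that p53 and the integrated stress response both induce, was scarce in these cells and scarcer with MCL. It had 1.24, 1.76 and 0.556 CPM with MCL, 3.22, 2.30 and 2.16 CPM with ruxolitinib, 1.10, 1.91 and 1.17 CPM with both drugs, 3.48, 3.36 and 3.66 CPM with TNF-α alone and 2.93, 2.33 and 4.17 CPM in untreated cells. The 6 libraries with MCL lay below the other 9. The values rest on few reads: 21, 27 and 9 counts with MCL and 19, 35 and 21 with both drugs, against 53, 56 and 59 with TNF-α alone. Against TNF-α alone the log2 fold change was -1.57 ± 0.29 with MCL (adjusted p = 1.88e-05) and -1.32 ± 0.28 with both drugs (adjusted p = 4.57e-05), and with ruxolitinib it was -0.45 ± 0.26 (95% CI -0.97 to 0.06, adjusted p = 0.268). Between both drugs and MCL the difference was 0.24, with a wide 95% CI of -0.40 to 0.89 (adjusted p = 0.586). The drop with both drugs against ruxolitinib (-0.87 ± 0.29, adjusted p = 0.00883) was not called without ruxolitinib replicate 1 (-0.67, adjusted p = 0.078) or both-drug replicate 1 (-0.73, adjusted p = 0.0509). GDF15 lies on chromosome 19 at 18374731 to 18389176, plus strand.

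TP53INP1, a regulator of autophagy and of p53 phosphorylation, was close to silent. Each library held 3 to 13 of its counts. The 3 libraries together gave 14 counts with MCL (exact 95% Poisson interval 7.65 to 23.5), 24 with ruxolitinib (15.4 to 35.7), 20 with both drugs (12.2 to 30.9), 19 with TNF-α alone (11.4 to 29.7) and 18 in untreated cells (10.7 to 28.4). All 5 intervals overlap, but this is not a test, and no difference between groups was tested for this gene. The intervals cover counting error only. The gene lies on chromosome 8 at 94925972 to 94949411, minus strand, and overlaps NDUFAF6 on the opposite strand, with 0 shared exon bases.

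**Figure D2:**
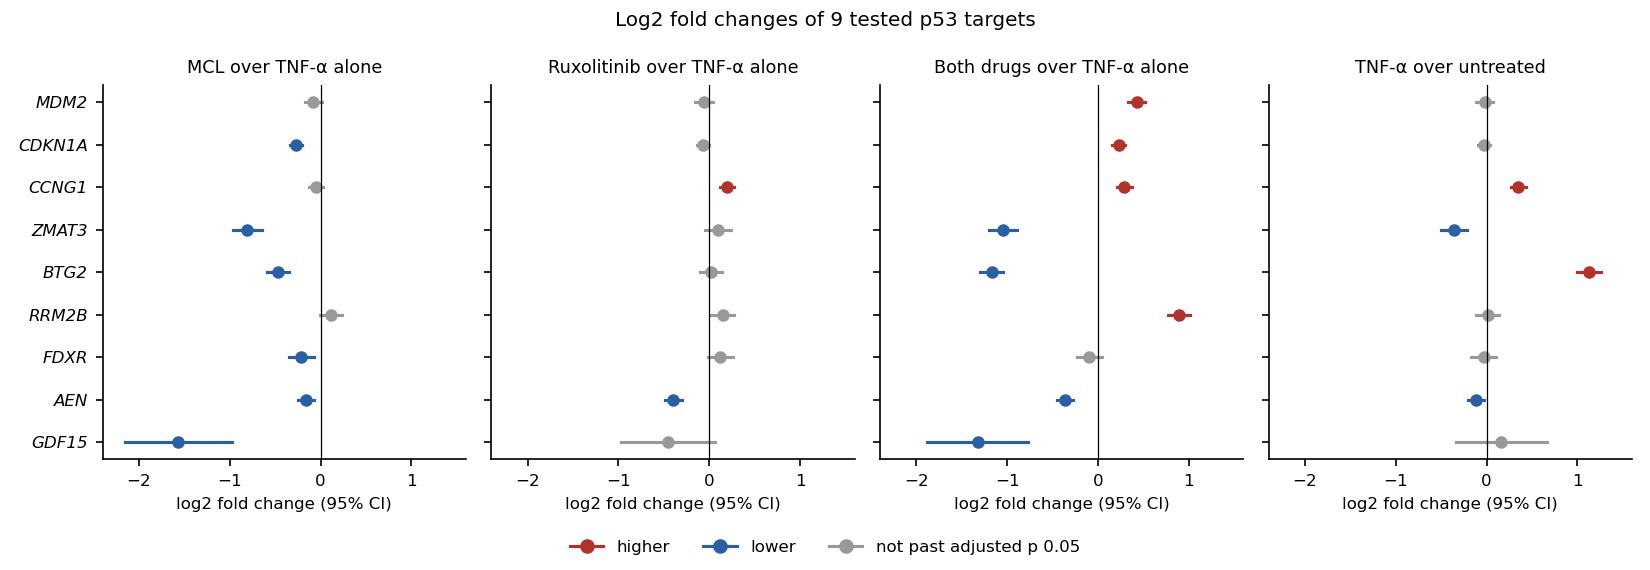
Log2 fold changes (horizontal axis, bars are 95% confidence intervals) of the 9 tested p53 targets with MCL, ruxolitinib or both drugs over TNF-α alone, and with TNF-α over untreated cells; red is higher, blue lower and grey not called. MCL has 6 members lower and 0 higher, and both drugs have 4 lower and 4 higher.

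The design also asks whether the drugs together did more or less than the sum of each alone. This non-additive effect takes the log2 change under the combination and subtracts the single-drug changes, each measured against TNF-α alone. It passed for 6 of 9 tested members, 4 above the sum and 2 below, where 25.0% of all tested genes passed, 12.2% above and 12.8% below. With library totals as scaling 5 members lay above and 2 below, where 2168 of all tested genes lay above and 1889 below. CDKN1A changed by 0.23 with both drugs, whereas its single-drug changes summed to -0.34, giving a non-additive effect of 0.57 ± 0.05 (adjusted p = 5.82e-15). MDM2 changed by 0.43 against a sum of -0.14, an effect of 0.57 ± 0.07 (adjusted p = 1.24e-09). RRM2B changed by 0.89 against a sum of 0.26, an effect of 0.63 ± 0.09 (adjusted p = 3.38e-08). BTG2 lay below its sum, with a change of -1.17 against -0.45 and an effect of -0.72 ± 0.09 (adjusted p = 1.58e-09).

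For the other tested members the effect was smaller or less precise. ZMAT3 changed by -1.05 against a sum of -0.71, an effect of -0.33 ± 0.11 (adjusted p = 0.0201) that was lost without MCL replicate 3 (-0.28, adjusted p = 0.0758), ruxolitinib replicate 3 (-0.27, 0.0718) or both-drug replicate 2 (-0.31, 0.0531). AEN changed by -0.36 against a sum of -0.56, an effect of 0.20 ± 0.07 (adjusted p = 0.0197). That call was lost with no filter (0.18, adjusted p = 0.0734) and without TNF-α replicate 2 (0.102), MCL replicate 1 (0.0568), MCL replicate 2 (0.05) or ruxolitinib replicate 3 (0.0616). CCNG1 had an effect of 0.14 ± 0.06 (adjusted p = 0.0605), which passed with library totals (0.16, adjusted p = 0.0288) and without TNF-α replicate 1 (adjusted p = 0.047). The effect was -0.01 for FDXR (95% CI -0.21 to 0.18, adjusted p = 0.946) and 0.70 for GDF15 (95% CI -0.13 to 1.52, adjusted p = 0.234).

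**Figure D3:**
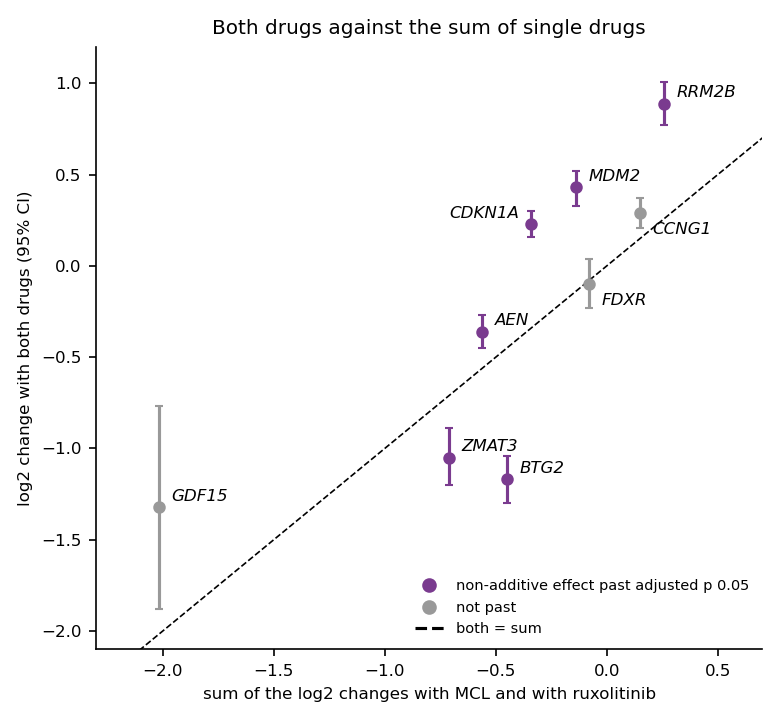
Log2 change with both drugs (vertical axis, 95% confidence interval) against the sum of the log2 changes with MCL and with ruxolitinib (horizontal axis) for the 9 tested p53 targets, all over TNF-α alone; the dashed line marks equality and purple marks a non-additive effect that passed. RRM2B, MDM2, CDKN1A and AEN lie above the line, BTG2 and ZMAT3 below it.

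The combination was also set against each single drug. Over MCL alone it had 7 of 9 members called, 4 higher (RRM2B, MDM2, CDKN1A, CCNG1) and 3 lower (BTG2, ZMAT3, AEN), where 41.6% of all genes were called, 19.6% higher and 22.0% lower. Over ruxolitinib alone 8 of 9 were called, where 51.7% of all genes were, 24.8% higher and 26.8% lower. RRM2B, MDM2, CDKN1A and CCNG1 were higher, and BTG2, ZMAT3, GDF15 and FDXR were lower. MDM2 gained 0.51 ± 0.05 over MCL and 0.49 ± 0.05 over ruxolitinib. Between the single drugs, 7 of 9 members differed, where 27.5% of all genes did, 14.3% higher and 13.1% lower. AEN was higher with MCL than with ruxolitinib by 0.24 ± 0.05, and ZMAT3, GDF15, BTG2, FDXR, CCNG1 and CDKN1A were lower. The GDF15 difference between the single drugs, -1.11 ± 0.30, was not called without MCL replicate 3 (-0.78, adjusted p = 0.0548). For MDM2 and RRM2B the MCL over ruxolitinib values did not pass, at -0.02 (95% CI -0.11 to 0.08, adjusted p = 0.831) and -0.03 (95% CI -0.16 to 0.09, adjusted p = 0.776).

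Set against untreated cells instead, 7 of 9 members were called with MCL (34.1% of all genes), 6 of 9 with ruxolitinib (36.8%) and 7 of 9 with both drugs (57.4%). CCNG1 was higher than in untreated cells in each drug group, by 0.30 ± 0.04 under MCL, 0.54 ± 0.04 under ruxolitinib and 0.64 ± 0.04 under both drugs. AEN was lower in each, with log2 changes of -0.28 ± 0.04 under MCL, -0.51 ± 0.05 under ruxolitinib and -0.48 ± 0.05 under both drugs. ZMAT3 was lower in each as well, with -1.17 ± 0.08, -0.26 ± 0.07 and -1.40 ± 0.08 for the groups in that sequence. BTG2 was 1.58-fold above untreated cells with MCL and 2.23-fold above with ruxolitinib. The FDXR value with MCL, -0.24 ± 0.07 (adjusted p = 0.00471), was lost without MCL replicate 2 (-0.19, adjusted p = 0.0542), and the CDKN1A value with ruxolitinib, -0.10 ± 0.03 (adjusted p = 0.0179), without untreated replicate 2 (0.0513), untreated replicate 3 (0.0952) or ruxolitinib replicate 3 (0.152).

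MDM4, the partner of MDM2 that masks the activation domain of p53, averaged 56.2, 62.3 and 64.0 CPM with MCL, ruxolitinib and both drugs, 60.7 CPM with TNF-α alone and 54.9 CPM in untreated cells. With both drugs it differed from TNF-α alone by 0.08 (95% CI -0.04 to 0.20, adjusted p = 0.288), a value that passed with library totals (0.15, adjusted p = 0.0343). MDM4 was called higher with both drugs than with MCL, and higher with ruxolitinib than in untreated cells. The first call was lost without both-drug replicate 1 (0.15, adjusted p = 0.071). The second was lost without untreated replicate 2 (0.15, adjusted p = 0.0865) or ruxolitinib replicate 1 (0.10, adjusted p = 0.231). The difference between both drugs and untreated cells was steadier, at 0.18 to 0.26 in the 15 fits that left out 1 library. MDM4 had 60.8 to 67.4 CPM in the libraries with both drugs and 52.4 to 57.4 CPM in the untreated ones. RNA levels say nothing about the amount or modification of the p53 protein, which is regulated mainly after translation.

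A list of 36 other p53 targets, 31 of them tested, moved in both directions as well. TNF-α against untreated cells had 11 higher and 0 lower, where 14.1% of all tested genes were higher and 12.5% lower. The 11 included the death receptor gene FAS (1.49 ± 0.10, adjusted p = 6.75e-20) and the adhesion and membrane rupture gene NINJ1 (1.11 ± 0.05). The apoptosis gene BBC3, which encodes PUMA, was also among them (0.80 ± 0.08). With MCL 3 were higher and 11 lower against TNF-α alone, where 10.9% of all tested genes were higher and 15.1% lower. PMAIP1, which encodes the apoptosis protein NOXA, rose by 1.12 ± 0.05 on the log2 scale (adjusted p = 4.45e-28), while FAS changed by -0.87 ± 0.09 and SUSD6 by -0.56 ± 0.05. FAS shares 380 exon bases with ACTA2 on the opposite strand. Ruxolitinib gave 4 higher and 5 lower, where 5.15% of all tested genes were higher and 10.6% lower. The largest called changes were those of the death receptor gene TNFRSF10A (-0.65 ± 0.07), the antiviral gene TRIM22 (-0.58 ± 0.06) and SUSD6 (-0.54 ± 0.05). TNFRSF10A shares 224 exon bases with TNFRSF10A-AS1 and 266 with another gene, both on the opposite strand. With both drugs 12 were higher and 10 lower, where 25.5% of all tested genes were higher and 29.3% lower. PMAIP1 was up by 2.07 ± 0.05 (adjusted p = 5.84e-44) and SESN2, a stress-induced inhibitor of mTORC1 that is also a target of the factor ATF4, by 2.03 ± 0.06 (adjusted p = 3e-38), while NINJ1 changed by -1.36 ± 0.05 (adjusted p = 2.61e-31). The median over this list was -0.08 under MCL, 0.06 under ruxolitinib and -0.00 under both drugs, and 0.06 with TNF-α against untreated cells.

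Of the 26 regulators of p53, all tested, 4 were higher and 4 lower with MCL, 2 higher and 4 lower with ruxolitinib, and 8 higher and 6 lower with both drugs, against TNF-α alone. The split depended on the scaling: with library totals it was 7 and 3 with MCL, 5 and 3 with ruxolitinib, and 10 and 4 with both drugs. Over all tested genes library totals gave 2381 higher and 2054 lower with MCL and 1181 and 1418 with ruxolitinib. For both drugs they gave 5091 and 3900. Without TNF-α replicate 3 the counts were 2 and 3 with MCL and 0 and 2 with ruxolitinib. Over the 15 fits that left out 1 library, called genes of any kind numbered 3443 to 4379 with MCL. With ruxolitinib they numbered 1938 to 2622. With TMM scaling and all 15 libraries, calls against TNF-α alone made up 26.0% of tested genes under MCL (10.9% up, 15.1% down). The share under ruxolitinib was 15.7% (5.15% up, 10.6% down), and under both drugs 54.8% (25.5% up, 29.3% down). PPP1R13B, which encodes ASPP1, a cofactor that steers p53 toward apoptosis genes, was higher with TNF-α than in untreated cells (0.74 ± 0.06) and lower than TNF-α alone with MCL (-0.55 ± 0.06), ruxolitinib (-0.55 ± 0.06) and both drugs (-1.12 ± 0.06). PPP1R13B shares 474 exon bases with ZFYVE21 on the opposite strand. HIPK2, a kinase that phosphorylates p53, changed by 0.56 ± 0.05 with MCL and by -0.42 ± 0.05 with ruxolitinib. TRIM24, a ubiquitin ligase for p53, changed by -0.43 ± 0.04 with MCL and -0.97 ± 0.04 with both drugs, and the coactivator CREBBP by 0.64 ± 0.04 with both drugs.

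The last list holds 20 cell cycle genes of the route from p21 to the DREAM repressor complex, all tested. Most are genes that the complex shuts off during p53-driven arrest, but LIN9, LIN54, RBL1 and RBL2 encode subunits of the complex itself. With both drugs 9 of the 20, subunits included, rose and 5 fell against TNF-α alone. The list median was 0.08 on the log2 scale. Of all tested genes 25.5% were higher and 29.3% lower in that comparison. With library totals 12 rose and 4 fell, where 5091 of all tested genes were higher and 3900 lower. These counts and the median mix repressed genes with subunits, which all averaged higher with both drugs. LIN9 averaged 24.1 CPM with both drugs and 19.8 CPM with TNF-α alone, and LIN54 45.8 and 28.4 CPM. RBL1 averaged 61.0 and 54.3 CPM and RBL2 83.5 and 70.7 CPM, in the same order. The highest of the list was LIN54, a DREAM subunit, at 0.69 ± 0.07, followed by CDC25C at 0.60 ± 0.10 and E2F1 at 0.41 ± 0.05. CDC25C shares 293 exon bases with FAM53C on the opposite strand. With ruxolitinib 8 were higher, among them E2F1 and LIN54, and 1 lower (CDC25A, -0.22 ± 0.04). In that comparison 5.15% of all tested genes were higher and 10.6% lower. With MCL 3 were higher, among them E2F1 and LIN54, and 4 lower, among them AURKA at -0.27 ± 0.04. There 10.9% of all tested genes were higher and 15.1% lower. TNF-α against untreated cells had 0 higher and 5 lower (8 lower with library totals), including CCNA2 at -0.17 ± 0.04. Of all tested genes 14.1% were higher and 12.5% lower in that comparison. With library totals 1983 of all tested genes were higher and 2690 lower. CCNA2 shares 254 exon bases with EXOSC9 on the opposite strand.

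**Figure D4:**
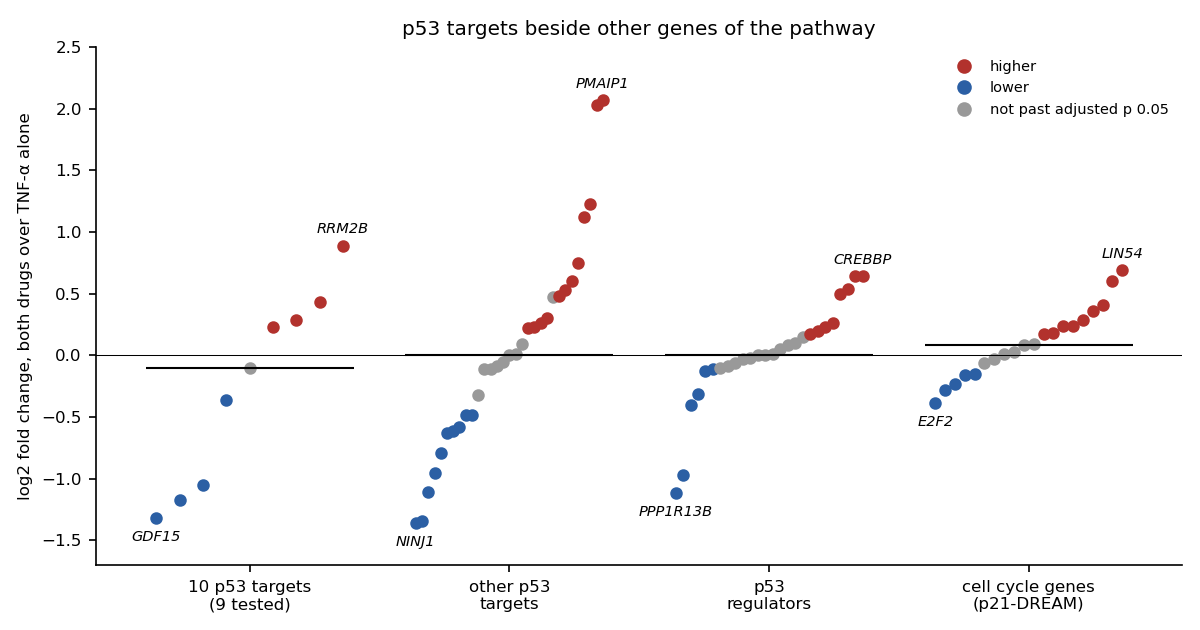
Log2 fold change with both drugs over TNF-α alone (vertical axis) for each tested gene of the p53 target members, other p53 targets, p53 regulators and p21-DREAM cell cycle genes, sorted within a list; black bars are list medians, and red, blue and grey mark higher, lower and not called. Members reach 0.89 for RRM2B and -1.32 for GDF15, and the other targets extend to 2.07 for PMAIP1.

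The genes whose profiles over the 15 libraries were most like those of a member differed from member to member. By Pearson correlation of log2 CPM, BTG2 was closest to TNFAIP2 (r = 0.994) and JUNB (0.993). RRM2B was closest to MERTK (0.982) and FAM214A (0.977), and AEN to PLCH1 (0.985) and CARD8 (0.983). ZMAT3 was closest to CREB3L2 (0.979) and PRF1 (0.977), CCNG1 to MED13L (0.969) and TTBK2 (0.962), and MDM2 to BRCA1 and RBBP6 (both 0.936). The likeness was weaker for FDXR, with EXD3 (0.891) and DHTKD1 (0.837), for GDF15, with ZNF680 (0.889) and DDX5 (0.879), and for CDKN1A, with TICRR (0.876) and MYCT1 (0.861). With library totals as scaling, CEL replaced DDX5 for GDF15, and PRF1 and ARHGAP9 were the closest to ZMAT3. The libraries share 5 groups, so these values describe group profiles and carry no test.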

How the data were processed

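RNA-seq of 15 UKE-1 libraries was analysed from 1 table of raw counts that the authors deposited, with a whole number for each gene and library and no normalization. Per the submitters' processing notes the tools included featureCounts 1.5.0-p3, HISAT2 2.0.5 and DESeq2 1.16.1, and the builds mm10 and hg38 are named without a role. Gene starts, ends and symbols equalled GENCODE 29 for 58735 of 58735 genes. Strand setting and multi-mapping rule are not given in the sources consulted. The control columns were assigned to untreated cells. Gene length was read from the deposited table and used for levels per kilobase.

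Genes were filtered with filterByExpr (minimum count 10), which removed 42589 and kept 16146, with at least 99.85% of each library's counts. edgeR 4.0.16 in R 4.3.3 fitted all 15 libraries together, with TMM factors and a coefficient for each group, leaving 10 residual degrees of freedom. Its robust quasi-likelihood F-test was applied to 10 comparisons of 2 groups and to the non-additive effect, and p-values were adjusted by Benjamini-Hochberg across the tested genes. The biological coefficient of variation was 0.04, so small changes pass. Standard errors were derived as the absolute log2 fold change over the root of F. Pairs of libraries within a group differed beyond sampling noise, and none was treated as a copy. Alternatives were DESeq2 1.42.0, its size factors, library totals, no filter, a replicate block, only the groups compared, and leaving out each library. The scripts were tested on simulated data.

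The members, gene lists, motifs and tests were chosen with earlier results of these data known. Named were all members, MDM4, up to 3 called members of each other list with the largest change in each of 4 comparisons, and the 2 protein-coding genes of at least 5 CPM most like each member. 1 gene that the rule names is not reported here. Promoter sequences are from RefSeq, GRCh38.p14.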

Additional observations from a re-analysis of the deposited data

Results flagged for a closer look

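The effect of MCL on 6 of the 9 tested p53 targets differed between cells with and without ruxolitinib, by edgeR's test of that difference, where 25.0% of all tested genes passed it. The differences, as log2 effect of MCL with ruxolitinib minus that without it, were 0.57 for MDM2, 0.57 for CDKN1A, 0.63 for RRM2B, 0.20 for AEN, -0.72 for BTG2 and -0.33 for ZMAT3. For CDKN1A the direction of the MCL effect itself turned: 0.30 in the presence of ruxolitinib and -0.27 in its absence. The AEN and ZMAT3 differences were lost in fits without single libraries, as given above.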

How the results depend on the processing

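Neither the total of called genes nor the total of called members moved by over 1.5 times in any contrast with DESeq2, its size factors, library totals, no filter, the replicate block, only the groups compared, or 1 library left out. Without 1 library the called members numbered 3 to 4 for TNF-α against untreated cells, 5 to 6 for MCL, 2 for ruxolitinib and 8 for both drugs against TNF-α alone, and 4 to 7 for the non-additive effect. Of 99 values (9 members in 11 contrasts), 97 kept their side of the threshold with DESeq2, 95 with library totals and 96 with no filter. Library totals shifted the balance of calls over all genes, and turned which direction was more frequent in all but the ruxolitinib comparison of these 4: 2381 higher and 2054 lower with MCL against TNF-α alone (1757 and 2442 with TMM), 1181 and 1418 with ruxolitinib (832 and 1706), 5091 and 3900 with both drugs (4110 and 4730), and 1983 and 2690 with TNF-α against untreated cells (2275 and 2017). The median of all genes moved by under 0.1 on the log2 scale. Deviations from group means correlated only weakly between libraries of equal replicate number. Over 30 same-number pairs r lay between -0.098 and 0.128 (median 0.018), with 4 of them over 0.1. Pairs with other numbers ran from -0.228 to 0.121 (median -0.0125). The replicate block left 8 members called with both drugs and 6 with MCL, and changed no member's call. Depth limits GDF15 and TP53INP1, whose libraries held at most 70 and 13 counts.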
